A study of Mus musculus with 6 samples.

Results

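Metallothionein and zinc handling genes were followed across 6 RNA-seq libraries of mouse neural stem/progenitor cells (NSPCs). The 6 members were a list of names: the metallothioneins Mt1, Mt2 and Mt3, the transcription factor gene Mtf1, the zinc exporter gene Slc30a1 and the zinc importer gene Slc39a10. They were found by NCBI gene identifier (17748, 17750, 17751, 17764, 22782 and 227059) in the deposited gene tables. All 6 were among the 17254 genes seen in any library, and all 6 passed the filter of a mean FPKM of at least 1 that left 11717 genes to test. FPKM counts fragments relative to transcript length and to the library total, so FPKM levels can be compared between genes.

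The study asked how oxidative and reducing conditions alter gene expression in NSPCs. Neonatal mouse NSPCs were kept for 48 h in N2 medium with EGF and bFGF, and each of 3 groups held 2 libraries. The control group was mock-treated. The PQ group received paraquat, a redox cycler that generates superoxide, at 5 µM where the labels state a dose. The NAC group received N-acetylcysteine, a thiol antioxidant and cysteine source, at 5 mM per the study's methods, since the labels give no dose. The labels name an Ink/Ark knockout and the strain C57BL/6 for control library 1 and PQ library 1, and give 20 ng/ml of the growth factors for these, but state no genotype for the other 4 libraries. The study's methods describe an immortalized Ink/Arf-/- culture in which stem cells, neuronal precursors and oligodendroglial progenitors are mixed, so the libraries are not of a single cell type. Expected counts summed to 9849392 and 10040827 for control, 10388731 and 9680436 for PQ and 10698241 and 9907726 for NAC. The study states that the RNA-seq was replicated, but neither it nor the labels say that libraries of a group came from separate cultures, so p-values measure the spread between these libraries, which may be technical.

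Metallothioneins are small cysteine-rich proteins that hold zinc and copper in thiolate clusters and release zinc when their thiols are oxidized. Free zinc is sensed by MTF-1, a zinc finger factor that binds metal response elements (MREs) and raises transcription of Mt1, Mt2 and Slc30a1, and SLC30 (ZnT) and SLC39 (ZIP) transporters carry zinc out of and into the cytosol. In the brain, Mt1 and Mt2 are broadly expressed and inducible, with high levels in astrocytes, whereas Mt3 is enriched in the nervous system and responds weakly to metals.

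The labelled cell type was checked first against marker genes. All 7 NSPC markers passed the filter, led by Vim with a mean of 2073 FPKM, and Sox2 stood at 153 ± 16.4 FPKM in control, 122 ± 0.12 in PQ and 127 ± 4.48 in NAC (mean ± SD, n = 2 each). Endothelial markers were near 0, with none of the 4 passing the filter, and the microglial genes Aif1, Csf1r and Tmem119, the neuronal genes Rbfox3 and Stmn2 and the oligodendroglial genes Sox10 and Mog had at most 3 counts in any library. Other genes of these lists were expressed, among them Olig2 at a mean of 322 FPKM, Map2 at 43.2, Pdgfra at 10.4 and P2ry12 at 2.24. Cdkn2a, the gene of the labelled knockout, was read at 137 and 162 expected counts in control, 120 and 130 in PQ and 130 and 131 in NAC. A gene total does not show on which exons the reads fell, so this value does not check the deletion.

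The metallothionein genes lie together on chromosome 8 of GRCm38.p6 (mm10), the build in the processing notes of 4 libraries. The notes of the other 2 and the study's methods name mm9, and no mm9 coordinates are used here. In order along the chromosome RefSeq places Mt4 at chr8:94137204-94139031, Mt3 at chr8:94152607-94154148, Mt2 at chr8:94172618-94173567 and Mt1 at chr8:94178883-94180327, all within 43124 bases. Mt4, a metallothionein of stratified epithelia, was listed in no library. Outside the cluster, Mtf1 lies at chr4:124802549-124849800, Slc30a1 at chr1:191906697-191913248 and Slc39a10 at chr1:46807544-46925776.

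Mt3 rose in PQ whereas its neighbour Mt2, like Mt1, was not called, so Mt2 and Mt3 were picked after the data were seen. The 250 bases before the Mt2 and Mt3 starts are shown. They come from the RefSeq promoter table of GRCm38.p6, both from the plus strand and 5′ to 3′, with matches to the MRE cores TGCACNC and TGCGCNC on either strand in capitals.
Mt2, chr8:94172368-94172617: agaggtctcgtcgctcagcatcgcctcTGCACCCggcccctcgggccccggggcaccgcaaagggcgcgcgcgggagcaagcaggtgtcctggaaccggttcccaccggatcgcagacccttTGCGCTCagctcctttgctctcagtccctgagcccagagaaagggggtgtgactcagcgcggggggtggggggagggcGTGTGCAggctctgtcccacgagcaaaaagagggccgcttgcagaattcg
Mt3, chr8:94152357-94152606: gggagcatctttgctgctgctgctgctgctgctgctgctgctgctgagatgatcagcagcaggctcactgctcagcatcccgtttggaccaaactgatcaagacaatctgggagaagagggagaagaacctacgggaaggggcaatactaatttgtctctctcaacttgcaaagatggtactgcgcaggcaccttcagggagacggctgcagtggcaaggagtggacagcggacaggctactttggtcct
The Mt2 window held 3 MRE core matches, TGCACCC at positions -223 to -217, TGCGCTC at -128 to -122 and GTGTGCA, on the minus strand, at -50 to -44, counted from the start. It also held a match to the antioxidant response element core TGACNNNGC at -79 to -71, which overlapped no MRE core. The Mt3 window held no match to any of the 3 motifs. Among all 32851 promoter windows of the table, 21.4% held at least 1 MRE core and 1.26% held 3 or more, while 10.4% held TGCACNC, 12.5% TGCGCNC and 10.2% the antioxidant core. The Mt1 window, chr8:94178839-94179088, held 1 MRE core (TGCACAC at -23 to -17) and the Slc30a1 window, chr1:191906531-191906780, held 1 MRE core and 1 antioxidant core. Both of these windows reach into the gene as RefSeq records it, since another start lies upstream, and they are not printed. The start most used in these cells is not known from the tables, and the Mt1 window may lie upstream of it, so its match count and positions need not describe the proximal promoter. The windows of Mtf1 and Slc39a10 held no match, and other start sites or bases outside the windows were not searched. A match is a string of letters and not a measured binding site. Whether motif content bears on the PQ values of Mt2 and Mt3 was not tested.

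Metallothionein transcripts were abundant in every library and were lowest in NAC. Summed over Mt1, Mt2 and Mt3, they reached 1826 and 2053 FPKM in control, 2124 and 2298 in PQ and 1012 and 1084 in NAC. This was 0.416 and 0.474% of all FPKM in control, 0.485 and 0.525% in PQ and 0.238 and 0.253% in NAC. Both NAC libraries were thus below every other library, and both PQ libraries were above both control libraries. In bulk libraries, fewer cells with these transcripts and less RNA per cell cannot be told apart.

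Mt1 encodes the more abundant of the inducible metallothioneins. Its level was 970.3 and 1143 FPKM in control, 1136 and 1243 in PQ and 567 and 572 in NAC. The NAC libraries lay close together and below all others, whereas the control and PQ ranges overlapped. By FPKM, Mt1 ranked 39 and 23 among all genes in control, 23 and 19 in PQ and 87 and 95 in NAC. In NAC, Mt1 fell 1.91-fold against control (log2 fold change -0.94, SE 0.10, 95% confidence interval -1.14 to -0.73, edgeR adjusted p = 1.6e-06). In PQ against control its log2 fold change was 0.15 (SE 0.10, interval -0.06 to 0.35, edgeR adjusted p = 0.33), and it was 0.04 without control library 1, 0.06 without PQ library 2 and 0.26 without control library 2.

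Mt2, whose product shares the inducible role of Mt1, followed the same order of groups. Its level was 745 and 789 FPKM in control, 766 and 865 in PQ and 373 and 441 in NAC. Again the NAC libraries stood apart and the control and PQ ranges overlapped. Mt2 fell 1.95-fold in NAC against control (log2 fold change -0.96, SE 0.10, interval -1.18 to -0.75, edgeR adjusted p = 2e-06). In PQ against control the log2 fold change was 0.06 (SE 0.10, interval -0.15 to 0.27, edgeR adjusted p = 0.71). The ratio of Mt1 to Mt2 FPKM was 1.30 and 1.45 in control, 1.48 and 1.44 in PQ and 1.52 and 1.30 in NAC, and these ranges overlapped between all groups.

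Mt3, the metallothionein known as growth inhibitory factor in brain, was called in both comparisons with control. Its level was 111 and 120.6 FPKM in control, 222 and 189.9 in PQ and 71.2 and 71.5 in NAC. No group overlapped another, with PQ highest and NAC lowest. Mt3 rose 1.75-fold in PQ (log2 fold change 0.81, SE 0.10, interval 0.59 to 1.02, edgeR adjusted p = 3.1e-05) and fell 1.67-fold in NAC (log2 fold change -0.74, SE 0.11, interval -0.97 to -0.51, edgeR adjusted p = 7.9e-05). Mt3 made up 6.06 and 5.88% of the metallothionein FPKM in control, 10.5 and 8.26% in PQ and 7.04 and 6.6% in NAC. Its share was thus higher in both PQ libraries than in any other library. For each Mt3 transcript there were 8.78 and 9.48 of Mt1 in control by FPKM, 5.11 and 6.54 in PQ and 7.97 and 7.99 in NAC. The 95% intervals of Mt3 and Mt1 in PQ, 0.59 to 1.02 and -0.06 to 0.35, came from the same libraries. Whether the PQ responses of Mt3 and Mt1 differ was not tested.

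**Figure D1:**
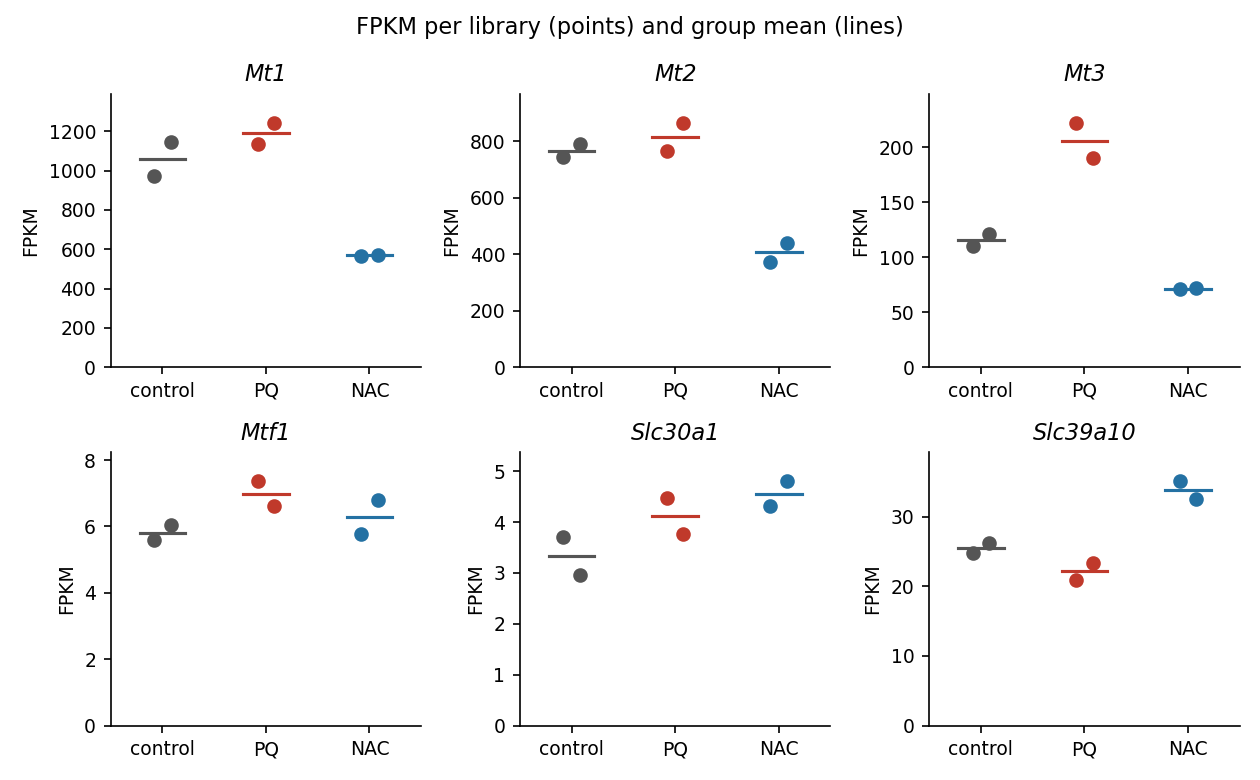
FPKM of each member (y axes, each from 0) in the 2 libraries of the control, PQ and NAC groups (x axes), with points for libraries and lines for group means. For Mt1, Mt2 and Mt3 both NAC points lie below all others, for Mt3 both PQ points lie above all others, and for Slc39a10 both NAC points, at 35.1 and 32.6 FPKM, lie above all others.

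Mtf1, the zinc-sensing regulator, was expressed at a low level that varied little between groups. Its FPKM was 5.59 and 6.03 in control, 7.36 and 6.61 in PQ and 5.78 and 6.8 in NAC. The PQ libraries were above both control libraries, and the NAC range overlapped both other groups. The log2 fold changes were 0.24 in PQ (SE 0.11, interval 0.00 to 0.48, edgeR adjusted p = 0.15) and 0.07 in NAC (SE 0.11, interval -0.17 to 0.31, edgeR adjusted p = 0.74). Changes in MTF-1 protein, its location or its zinc binding are not seen in transcript levels.

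Slc30a1 encodes ZnT1, the plasma membrane zinc exporter and a known MTF-1 target. Its level was 3.71 and 2.96 FPKM in control, 4.47 and 3.76 in PQ and 4.32 and 4.8 in NAC, the lowest of the members. Both control libraries were below the other 4, while PQ and NAC overlapped. It rested on 157 to 251 expected counts per library, and its SE of 0.15 was the largest of the 6. The log2 fold changes against control were 0.28 in PQ (SE 0.15, interval -0.05 to 0.60, edgeR adjusted p = 0.24) and 0.40 in NAC (SE 0.15, interval 0.08 to 0.72, edgeR adjusted p = 0.074), and neither was called. The NAC difference was called without control library 1 (0.58, adjusted p = 0.024) and with the labelled sequencing platform as a covariate (0.55, adjusted p = 0.03), and the adjusted p over all alternatives ranged from 0.024 to 0.37.

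Slc39a10 encodes ZIP10, a plasma membrane zinc importer. Its level was 24.8 and 26.2 FPKM in control, 21.0 and 23.4 in PQ and 35.1 and 32.6 in NAC. The groups did not overlap, and the order, with NAC highest and PQ lowest, was the inverse of that of Mt3. Slc39a10 rose 1.28-fold in NAC against control (log2 fold change 0.36, SE 0.10, interval 0.15 to 0.57, edgeR adjusted p = 0.014). In PQ the log2 fold change was -0.23 (SE 0.10, interval -0.44 to -0.02, edgeR adjusted p = 0.12) and was not called. The NAC call was lost without control library 1 (0.33, adjusted p = 0.052), without NAC library 1 (0.30, adjusted p = 0.14) and with the platform covariate (0.30, adjusted p = 0.099), with adjusted p from 0.0055 to 0.14 over all alternatives.

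In PQ against control, Mt3 was therefore the 1 member of 6 that was called, where 19.2% of the 11717 genes were called, 9.76% as higher and 9.45% as lower. In NAC against control, 4 of the 6 were called, 3 lower and 1 higher, where 18.7% of all genes were called, 9.64% as lower and 9.01% as higher. The median log2 fold change of the 6 members was 0.19 in PQ and -0.34 in NAC, beside -0.00132 and -0.00177 over all genes tested. Without control library 1 the members' PQ median was 0.12. These comparisons share the control libraries, so the members' values are set side by side and the comparisons are not independent.

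PQ and NAC were also compared directly, which contrasts the oxidant with the antioxidant. Here 4 of the 6 members were called, 3 higher and 1 lower in PQ, where 31.6% of all genes were called, 16.0% as higher and 15.7% as lower. Mt3 differed most, 2.93-fold (log2 fold change 1.55, SE 0.11, interval 1.32 to 1.77, edgeR adjusted p = 9e-09). Mt1 was 2.12-fold higher in PQ (1.08, SE 0.10, adjusted p = 1.6e-07), and Mt2 was 2.04-fold higher (1.03, SE 0.10, adjusted p = 4.9e-07). Slc39a10 was 1.51-fold lower in PQ than in NAC (-0.59, SE 0.10, adjusted p = 0.00016). Mtf1 (0.17, adjusted p = 0.26) and Slc30a1 (-0.13, adjusted p = 0.56) were not called. Over the alternatives the log2 fold change of Mtf1 ranged from 0.07 to 0.29 and that of Slc30a1 from -0.27 to -0.02.

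**Figure D2:**
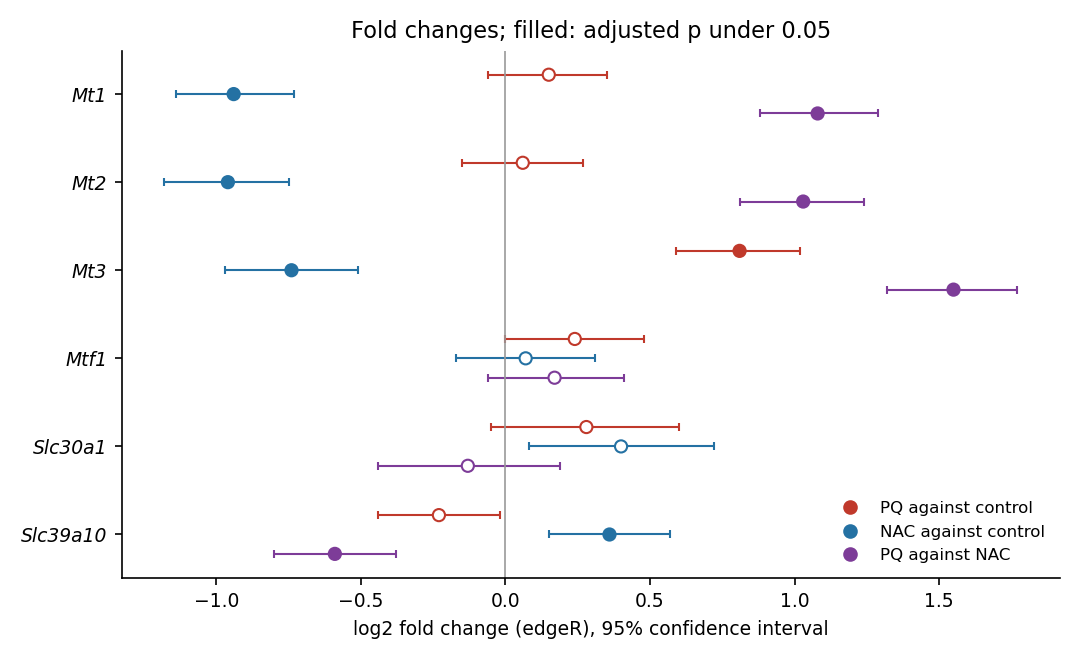
Log2 fold changes (x axis) of the 6 members (y axis) in the 3 comparisons, with 95% confidence intervals from the edgeR fit as bars and filled points for an adjusted p under 0.05. The NAC points of Mt1, Mt2 and Mt3 lie between -0.96 and -0.74, and of the PQ points against control only that of Mt3, at 0.81, is filled.

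The labels place both NAC libraries, control library 2 and PQ library 2 on BGISEQ-500, whereas control library 1 and PQ library 1 carry Illumina notes. The study's methods name only an Illumina sequencer, so the labelled platform, and the covariate built on it, are uncertain. Within the 4 BGISEQ-500 libraries, Mt1 stood at 1143 FPKM in control, 1243 in PQ and 567 and 572 in NAC. Mt3 there stood at 120.6 in control, 189.9 in PQ and 71.2 and 71.5 in NAC, in the same order as over all libraries. With platform as a covariate the NAC log2 fold changes against control were -1.03 for Mt1, -1.03 for Mt2 and -0.72 for Mt3, and the PQ log2 fold change of Mt3 was 0.80, all still called. By the labels the NAC group has no Illumina library, so no value within that platform can be given for NAC.

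The falls in NAC accompanied higher levels of most astrocyte markers tested. Of 8 such genes 7 were tested, with a median log2 fold change of 1.09 in NAC against control. In NAC 5 of the 7 rose, where 9.01% of all genes did. The count was 4 under the replicate block and without control library 2, either PQ library or either NAC library, 6 without control library 1, and the median was 0.60 with limma. In PQ, Slc1a3 had a log2 fold change of -0.48 and was called, as was Aldh1l1 at 1.17, whose call was lost without PQ library 1 and which stood at -0.49 in NAC, not called. In NAC, Aqp4 rose by 1.76, Gfap by 1.23 and Aldoc by 1.09 on the log2 scale. Levels of Aqp4 and Gfap were low, at 0.745 and 1.9 FPKM in control and 2.61 and 4.61 in NAC. Aldoc stood at 44.2 FPKM in control and 97 in NAC. The summed FPKM of the list was 156 and 147 in control, 125 and 131 in PQ and 238 and 238 in NAC, and its most abundant gene was Slc1a3, with a mean of 98.9 FPKM, while Gjb6 was at or near 0. Of the 7 NSPC markers 3 fell in NAC, where 9.64% of all genes did. They were led by Vim, the most abundant, which fell by 0.75 on the log2 scale. In PQ 1 rose and 2 fell, where 9.76% and 9.45% of all genes did. The NAC count was 1 with limma, the replicate block or the platform covariate and without control library 1, NAC library 1 or NAC library 2, and without either PQ library 1 marker was called in PQ, as lower. The part of these shifts in the metallothionein differences was not tested.

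Across the 6 libraries, Mt1 and Mt2 had nearly the same profile, with a Pearson r of log2 CPM (counts scaled to the library total) of 0.98. Only 0.495% of the genes tested had a higher r with Mt1 than Mt2 did. Mt3 correlated with Mt1 at 0.89, which 6.61% of genes exceeded, and with Slc39a10 at -0.96, which 98.6% exceeded. Mt1 and Slc30a1, both known MTF-1 targets, had an r of -0.62, and 77.6% of genes had a higher r with Mt1. These 6 points fall into 3 treatment groups, and the coefficients are descriptions. Genes of the lists described here were left out of the search for the genes most like each member. Among the other genes tested, those most like Mt1 were Me2 (0.998), Cd82 (0.997) and Scd1 (0.997). Those most like Mt2 were Mgarp (0.999), Pafah1b3 (0.999) and Epha7 (0.998). Mt3 was nearest to Hmga2-ps1 (0.998), Eogt (0.998) and Gas7 (0.997). Mtf1 was nearest to Tmem198b (0.993), Slc30a1 to H2aw (0.988) and Slc39a10 to Zfp251, Capn7 and Gnptab (0.993 each).

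The genes on either side of the cluster served as a local comparison. Of the 4 nearest tested genes on each side, 3 of 8 were called in PQ, all 3 lower, with log2 fold changes of the 8 from -0.52 to 0.32. Of all genes, 19.2% were called in PQ, 9.45% as lower. In NAC, 18.7% of all genes were called, 9.64% as lower. Of the 8, 2 were called in NAC, both lower, with a range over the 8 of -0.85 to 0.16. These were the next tested genes after Mt1, Nup93 (-0.39, SE 0.10, edgeR adjusted p = 0.0085) and Herpud1 (-0.85, SE 0.15, edgeR adjusted p = 0.00034). Nup93 encodes a nuclear pore protein and Herpud1 a protein of endoplasmic reticulum stress. Both were also lower in PQ, at -0.29 and -0.52, where Mt1 and Mt2 were not called and Mt3 rose. Upstream of Mt3, Nudt21 was the other gene called in PQ (-0.40, SE 0.10, edgeR adjusted p = 0.01). In NAC it stood at -0.23 and was not called. Bbs2, on the same side, had a log2 fold change of -0.29 in PQ and -0.19 in NAC, and was called in neither.

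**Figure D3:**
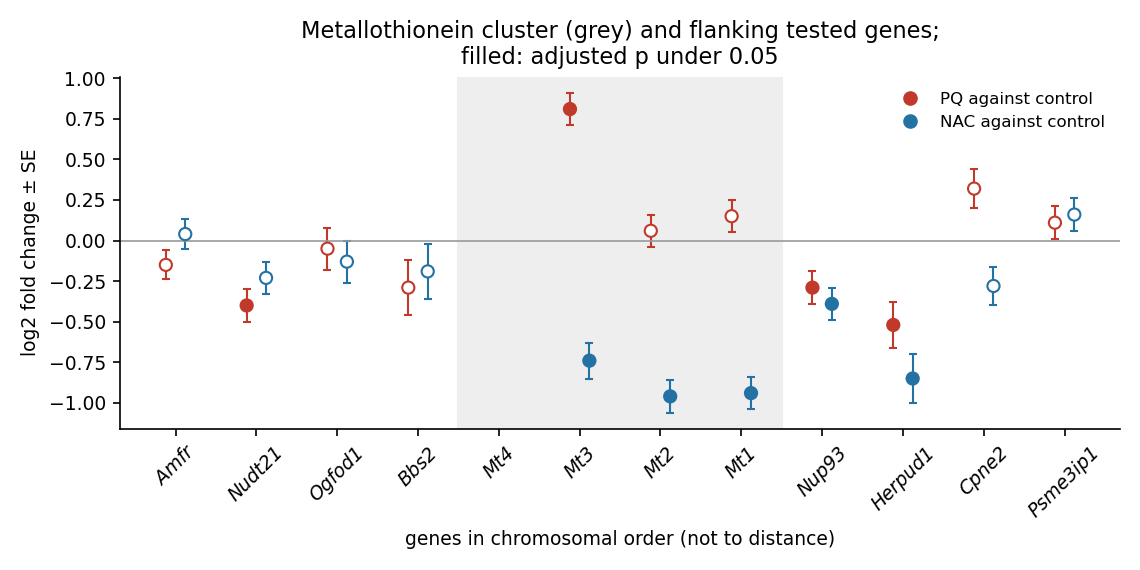
Log2 fold change ± SE against control (y axis) for the metallothionein cluster and the 4 nearest tested genes on each side, in chromosomal order and not to distance (x axis), with filled points for an edgeR adjusted p under 0.05. Within the cluster all NAC points are low and the PQ point of Mt3, at 0.81, stands above every flanking gene, whose highest PQ value is 0.32, and Mt4 has no point.

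The wider zinc transporter families were set beside the members, with 19.2% of all genes called in PQ and 18.7% in NAC as their background. Of 10 SLC30 genes 6 were tested, with median log2 fold changes of 0.09 in PQ and -0.06 in NAC. The NAC median was -0.16 without NAC library 1 and 0.04 without NAC library 2. The PQ median was 0.04 without control library 1. The 1 called in NAC was Slc30a4, the most abundant of the 6 at a mean of 43.3 FPKM, which loads zinc into vesicles. It stood at 44.1 ± 3.47 FPKM in control, 53.8 ± 1.07 in PQ and 32.0 ± 0.849 in NAC, and its fall in NAC was 0.51 on the log2 scale (log2 fold change -0.51, SE 0.09, edgeR adjusted p = 0.00072). In PQ against control, Slc30a4 had a log2 fold change of 0.26 (adjusted p = 0.061). Its order of groups was that of the metallothioneins, and opposite to that of Slc39a10.

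Of 14 SLC39 genes 9 were tested, with medians of 0.13 in PQ and 0.02 in NAC. The NAC median was 0.15 without NAC library 1 and -0.11 without NAC library 2. The PQ median was 0.06 without control library 1. Slc39a10 was the 1 called in NAC. In PQ against control Slc39a6, whose product ZIP6 pairs with ZIP10 at the plasma membrane, was the 1 called (log2 fold change 0.37, SE 0.09, edgeR adjusted p = 0.0094), and this call was lost when PQ library 1 was left out. Slc39a6 and Slc39a10 thus took opposite signs in PQ, 0.37 and -0.23, although the second was not called. The most abundant family member was Slc39a1, with a mean of 75.7 FPKM and log2 fold changes of 0.14 in PQ and 0.16 in NAC, neither called. By FPKM, Slc39a10 exceeded Slc30a1 6.69- and 8.85-fold in control, 4.69- and 6.22-fold in PQ and 8.12- and 6.79-fold in NAC, ranges that overlap between control and NAC.

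**Figure D4:**
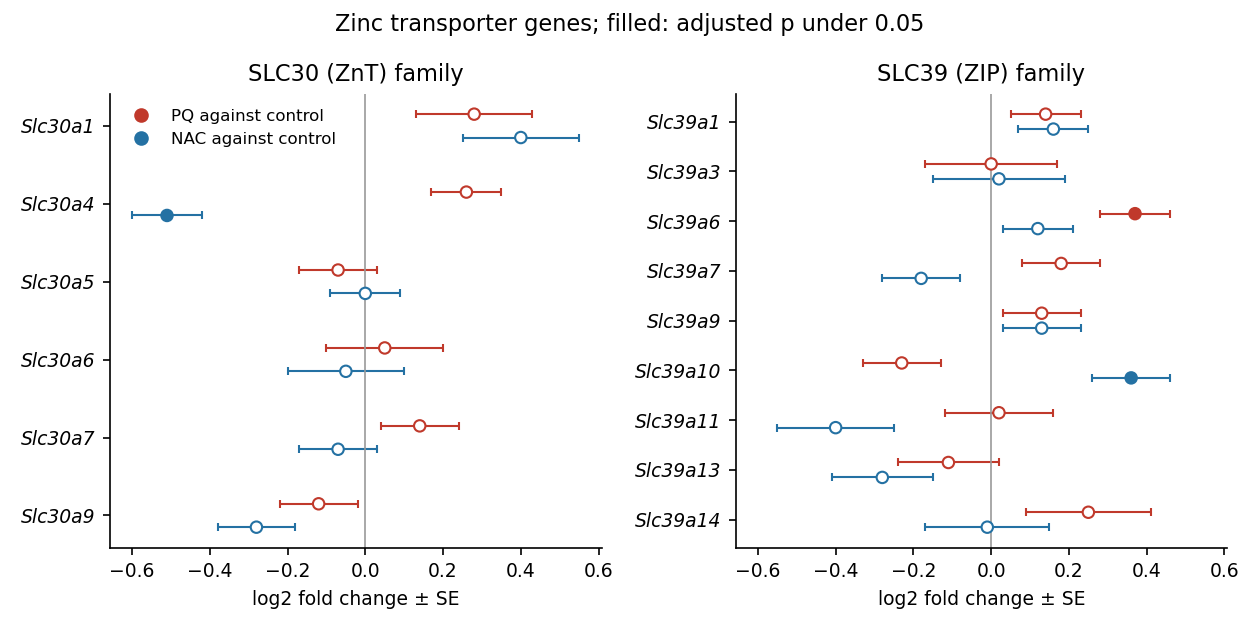
Log2 fold change ± SE (x axes) of the tested SLC30 and SLC39 genes (y axes) in PQ and in NAC against control, with filled points for an edgeR adjusted p under 0.05. Filled points are Slc30a4 (-0.51) and Slc39a10 (0.36) in NAC and Slc39a6 (0.37) in PQ, and the remaining genes are open in both comparisons.

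Other genes known to respond to metals or MTF-1 were taken as a list. Of 9 such genes 8 were tested, since the iron exporter gene Slc40a1 had at most 3 counts. In PQ against control 5 of 8 rose, where 9.76% of all genes did, with a median log2 fold change of 0.66. Only 2 were called higher when PQ library 1 was left out, and the median was 0.44 then and 0.29 with no filter. Ndrg1 went the other way in PQ (-0.31, not called), and 1 gene of the list was called lower with the platform covariate, with no filter, without control library 1 and without PQ library 2. In NAC 4 of 8 fell, where 9.64% of all genes did, with a median of -0.36, which became 3 and -0.21 without NAC library 1. In NAC 1 gene of the list was called higher with the platform covariate, with no filter and without PQ library 2. Hmox1, which encodes heme oxygenase and is also a target of NRF2, rose by 1.02 in PQ (SE 0.11, edgeR adjusted p = 7.3e-06) and fell by 0.45 in NAC (edgeR adjusted p = 0.011). Selenow, a selenoprotein gene and the most abundant of the list at a mean of 255 FPKM, had log2 fold changes of 0.30 in PQ (edgeR adjusted p = 0.036) and -0.87 in NAC (edgeR adjusted p = 3.9e-06). Ndrg1, a gene responsive to stress and hypoxia, fell by 1.30 in NAC (edgeR adjusted p = 5.1e-07) and Gclc, a glutathione synthesis gene, fell by 0.44 (edgeR adjusted p = 0.0039). In PQ the heat shock genes Hspa1a (1.47) and Hspa1b (1.14) and the growth factor gene Pgf (1.21) also rose, from low levels. Hspa1a stood at 0.85 and 1.21 FPKM in control and 3.60 and 2.14 in PQ. Hspa1b stood at 1.58 and 2.09 FPKM in control and 4.02 and 4.23 in PQ. Pgf stood at 1.63 and 1.59 FPKM in control, 5.16 and 2.4 in PQ and 3.22 and 3.07 in NAC, so PQ library 1 carried most of its difference, and it was also higher in NAC (0.92, edgeR adjusted p = 0.087), without a call. Hspa1a and Hspa1b are near-identical and had fractional counts, so their reads may be shared between them. Slc30a1, an MTF-1 target in the same pathway, was not called in either comparison.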

How the data were processed

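RNA was sequenced from 6 NSPC libraries, 2 each of control, PQ and NAC. The authors deposited, per gene, an expected count, an estimate that may be fractional where reads map to several genes, and an FPKM value, scaled by the authors to transcript length and library total. The study's methods and the processing notes of 2 libraries name mm9, with TopHat2 2.0.11 and Cufflinks 2.1.1 in the notes. The notes of the other 4 name mm10, HISAT2 2.0.4, Bowtie2 2.2.5 and RSEM. All tables have the columns that RSEM writes, so which steps made each table is uncertain, and whether strand was used in counting is not given in the sources used here. Reads of overlapping or near-identical genes may be shared. The 6 members had whole counts in every library.

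Symbols were assigned by NCBI gene identifier to 17199 of 17254 genes. Expected counts were rounded and tested with edgeR 4.0.16 in R 4.3.3 (TMM, quasi-likelihood test, no covariates, all 6 libraries together, genes whose mean FPKM reached 1), and p-values were adjusted by Benjamini-Hochberg over 11717 genes at a threshold of 0.05. Each SE is the absolute log2 fold change over the root of F. A gene that never exceeded 3 counts was taken as not detectable, at totals of 9680436 to 10698241 counts per library. The members and gene lists were chosen with earlier results of these data known, so lists were described by counts and medians and not tested. Genes named were the members, list genes past the threshold or most abundant, and the 3 genes outside the lists most like each member. The 4 tested genes on each side of the cluster were also named, chosen after the data were seen. The code was tested on simulated counts. Alternatives were DESeq2 1.42.0 size factors or Wald test, no filter, limma 3.58.1 on log2(FPKM + 1), a replicate block, a platform covariate and leaving out each library. Protein sequences were not used here.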

Additional observations from a re-analysis of the deposited data

How the results depend on the processing

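The falls of Mt1, Mt2 and Mt3 in NAC, the rise of Mt3 in PQ, and the differences of Mt1, Mt2, Mt3 and Slc39a10 between PQ and NAC kept their direction and their call under every alternative run for single genes, which did not include the crossed block. The rise of Slc39a10 in NAC had log2 fold changes of 0.30 to 0.42 with each library left out and 0.30 with the platform covariate, where its call was lost. The log2 fold change of Slc30a1 in NAC, not called with all libraries, was 0.24 to 0.58 with each library left out and 0.55 with the platform covariate, where it was called. Small log2 fold changes that were not called changed sign: Mt2 in PQ ranged from -0.04, without PQ library 2, to 0.16, and Mtf1 in NAC from -0.05, without NAC library 2, to 0.17. In PQ and not called, Mt1 ranged from 0.04 to 0.26, Slc30a1 from 0.11 to 0.46 and Slc39a10 from -0.32 to -0.14 with each library left out. The cause was not tested.

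Genes called with each library left out ranged from 866 to 2206 in PQ against control (866 without PQ library 1), from 1286 to 2126 in NAC against control (1286 without NAC library 1, 1427 without NAC library 2) and from 2343 to 4207 in PQ against NAC (2343 without PQ library 1, 2407 without NAC library 1), beside 2250, 2186 and 3708 with all libraries. Where a group was left with 1 library, that library was assumed to vary like the other groups. The labels give no replicate numbers. The study sets, matched from its Source Data to FPKM, were used as a replicate block, although their deviations correlated at only -0.08 for control and PQ, -0.15 for control and NAC and 0.11 for PQ and NAC. Under the replicate block 1798, 1804 and 3243 genes were called and no member's call changed. A crossed block, with the control libraries exchanged and chosen after seeing the data, gave 3291, 3178 and 4760 calls. Slc30a1 rested on 157 to 251 counts per library, the fewest of the members.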

Other observations

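Other regulators of Mt1 and Mt2 are known besides zinc. Glucocorticoid receptor targets were mixed. Of 6 tested, 3 fell in PQ, where 9.45% of all genes did. In NAC 2 rose and 2 fell, where 9.01% and 9.64% of all genes did. The medians were -0.26 in PQ and 0.03 in NAC. The NAC median was -0.04 without control library 1 and with the platform covariate. Fkbp5 had log2 fold changes of -0.36 in PQ and 0.32 in NAC, Tsc22d3 of -0.82 and -0.55, and Sgk1, the most abundant at a mean of 43.2 FPKM, of 0.11 (not called) and -0.65. Without PQ library 1 only 1 of the PQ falls was called, and without either NAC library, as with the platform covariate, 1 fall and no rise was called in NAC. STAT3 targets were higher where called, and of all genes 9.01% were called higher in NAC and 9.76% in PQ. In NAC 3 of 5 tested rose, Junb by 0.70, Cebpd by 0.47 and Stat3 by 0.47 on the log2 scale, with a list median of 0.47. In PQ 2 of the 5 rose, Junb by 0.37 and Cebpd by 0.38, but the PQ calls were lost without PQ library 1 and without PQ library 2.

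Copper handling genes, all 10 of them tested, had medians of 0.12 in PQ and -0.12 in NAC. Without control library 1 these were 0.03 and -0.01, and without control library 2 the PQ median was 0.26. Their counts of calls were below the share over all genes (19.2% in PQ, 18.7% in NAC) or, between PQ and NAC, near it (31.6%). The NAC count was 2 with no filter and with the platform covariate. In PQ the 1 called was Slc31a2 (0.68, edgeR adjusted p = 0.019), and it was not called by DESeq2, nor without control library 2 or PQ library 1. In NAC the 1 called was Atp7a, a copper export pump (-0.68, edgeR adjusted p = 0.00076), whose counts were fractional in all 6 libraries. The most abundant was Cox17, at a mean of 48.4 FPKM. Between PQ and NAC 3 of the 10 were higher in PQ, but 2 under the replicate block or by DESeq2 and 1 without PQ library 1 or without NAC library 2. Outside the NSPC and astrocyte lists, tested markers that rose in NAC included Map2 (0.77), Pdgfra (0.40) and P2ry12 (1.18). The Pdgfra call was lost with the platform covariate, without control library 1 and without NAC library 2, and the P2ry12 call without NAC library 1. Map2 was the 1 tested of 6 neuronal markers, and others went the opposite way, with Tubb3 at 1.84 FPKM in control and 0.38 in NAC and Syt1 at 0.2 and 0.085. With no filter on low values, 5 neuronal markers were tested, 1 was higher and 1 lower, and their median in NAC was -0.93. Olig2, at a mean of 322 FPKM, had a log2 fold change of 0.07 in NAC. The part of these shifts in the metallothionein levels was not tested.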
